A study of Homo sapiens with 2 samples.

Results

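PQBP1 peaks on the genes for ribosomal proteins and translation factors were examined in a SpyCLIP-seq peak list from HEY ovarian cancer cells. Members were chosen by name alone: peaks that the list assigns to mRNA and to a gene named as a ribosomal protein of the large subunit (RPL or RPLP with a number) or small subunit (RPS with a number, or RPSA), as an elongation factor (EEF1, EEF2), as an initiation factor (EIF1 to EIF5), or as a cytoplasmic poly(A) binding protein (PABPC). The rule took 88 of the 1338 mRNA peaks (6.58%, Wilson 95% interval 5.37 to 8.03) and 50 of the 629 genes that carried them. The other 1250 mRNA peaks, on 579 genes, served as the comparison. The label held for 87 of the 88 peaks. The exception was EIF2AK4, which matched the rule by name but is a kinase that phosphorylates an initiation factor.

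SpyCLIP-seq maps the RNA that a tagged protein touches in living cells. HEY, an established human ovarian cancer line, overexpressed PQBP1 with FLAG and Spy tags, was irradiated with ultraviolet light at 400 mJ per cm2, and was lysed after its nuclei had been isolated. There were 1 library of the lysate (Input) and 1 of the anti-FLAG pull-down (IP), both from tagged cells, and the peak list used here is that of the IP library. The overexpressed, tagged protein limits these cells as a model of PQBP1 at its normal level.

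The ribosome is built from a small subunit, which reads the mRNA, and a large subunit, which joins amino acids. Initiation factors bring the small subunit to the start codon, elongation factors move the ribosome along, and PABPC1 coats the poly(A) tail. The mRNAs of ribosomal proteins and of several of these factors begin with a C followed by a run of pyrimidines, the 5′ TOP motif, through which growth signals control their translation. Many of the genes also carry small nucleolar RNAs (snoRNAs) in their introns, which are released from the spliced-out introns. PQBP1 is a nuclear protein that works with the splicing machinery, so the genes offer spliced mRNA, introns and hosted snoRNAs as places for a peak.

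The start of the transcript did not enter the name rule, but the rule picks families known for the 5′ TOP motif. A high share with the motif among the members was thus largely given in advance and is no result about the peaks. The windows below show 10 bases before and 20 bases from the start that RefSeq gives (GRCh38.p14), written in the gene's own direction. Capitals mark a C at the start base with the pyrimidines that follow it, where there are at least 4. The genes were chosen because they carry the peaks that the results below turn on: RPLP1, EEF1A1 and EEF2 among the highest exon peaks, RPS12 and RPS27 with the highest intron peaks of ribosomal protein genes, and RPL28 with a 5′ UTR peak. RPL4, RPL19 and EIF4G1, which also had high peaks, and RPL15, with a 5′ UTR peak, had no such run at the start base. RPL19 has 2 starts in the table and RPL15 and EIF4G1 have 3 each, none with the run, and the first is shown. Under the looser search below, which lets the run begin within 5 bases of the start, RPL4 and RPL19 do have a run. EIF4G1 then has one at a start not shown, and RPL15 has none. The windows are examples, and the share with the run among them is not that of the genes.
RPLP1, chr15:69452808-69452837, plus strand: ggcgcgagagCCCCTTTCCTCagctgccgc
EEF1A1, chr6:73521013-73521042, minus strand: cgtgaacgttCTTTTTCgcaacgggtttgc
EEF2, chr19:3985444-3985473, minus strand: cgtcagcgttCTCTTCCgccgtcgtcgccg
RPS12, chr6:132814559-132814588, plus strand: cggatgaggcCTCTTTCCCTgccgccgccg
RPS27, chr1:153990752-153990781, plus strand: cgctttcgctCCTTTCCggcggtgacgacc
RPL28, chr19:55385922-55385951, plus strand: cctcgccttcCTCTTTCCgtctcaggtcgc
RPL4, chr15:66504836-66504865, minus strand: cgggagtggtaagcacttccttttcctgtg
RPL19, chr17:39200273-39200302, plus strand: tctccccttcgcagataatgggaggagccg
RPL15, chr3:23916535-23916564, plus strand: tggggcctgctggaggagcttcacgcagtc
EIF4G1, chr3:184314596-184314625, plus strand: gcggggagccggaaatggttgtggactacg

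Of the 50 genes, 39 had a start in the RefSeq table, and 24 of these (61.5%, 45.9 to 75.1) had such a run at 1 or more of their starts. The motif was searched as a C at the start base followed by at least 4 bases that are each C or T, on the gene's strand alone. Over all coding genes in the table the share was 6.24% (988 of 15842), and over the other genes with an mRNA peak it was 7.08% (32 of 452). A looser search, which let the run begin within 5 bases of the start, brought the shares closer, to 79.5% of the members (31 of 39, 64.5 to 89.2), 28.0% of all coding genes and 28.8% of the other genes with a peak. Of the ribosomal protein genes with a peak, 22 of 31 had the run (71.0%, 53.4 to 83.9). Of the ribosomal protein genes without a peak, 27 of 42 had it (64.3%, 49.2 to 77.0), so the run was common in the family whether or not a peak was listed. Outside the ribosomal proteins, EEF1A1 and EEF2 were the 2 of 8 member genes with it. Of the peaks on genes with the run 21 of 31 were in exons, as were 21 of 31 on genes without it, and their median read values were 14 and 13 reads per bin. The remaining 26 member peaks, on 11 genes without a start in the table, had 17 in exons and a median of 11. A match describes these letters at an annotated start and is no evidence of a binding site.

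The list held 1489 peaks with 39952 reads. Its read value is the mean number of reads per 200-nt bin of a peak, its lowest value was 6, and total sequencing depth is unknown. The members held 1641 of the 22483 reads in mRNA peaks (7.30%). Intervals on reads are exact Poisson 95% intervals. The reads carry no molecular identifiers and need not come from separate molecules, so these and the Wilson intervals cover counting error only. With 1 IP library no test between conditions was possible, and peaks of this library, several of them on the same gene, are not replicates. Positions are those of the list, 1-based, and its build is not GRCh38: 10 of the 88 member peaks (11.4%) overlapped their own gene on GRCh38. Sequence under the peaks was therefore not read. Of the markers chosen for the cells, 2 of 9 epithelial genes (KRT7 with 5 peaks, KRT8 with 2) and 2 of 3 mesenchymal genes (VIM with 5, FN1 with 4) had a peak. Among 4 markers of other cells, the collagen gene COL1A1 had 11 peaks and PTPRC, PECAM1 and ACTA2 had 0, though a peak list does not measure expression.

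Ribosomal protein genes were met often in the list. Among all coding genes of RefSeq, 3.13% had an mRNA peak, against 27.9% (50 of 179, 21.9 to 34.9) of those that match the name rule. Near-copies and read-through names, such as the like-named duplicates of ribosomal protein genes, made up part of the 179. Without them 38 of 77 ribosomal protein genes had a peak (49.4%, 38.5 to 60.3). The large subunit had 26 of 46 (56.5%, 42.2 to 69.8) and the small subunit 12 of 31 (38.7%, 23.7 to 56.2), with intervals that overlapped. Elongation factors had 3 of 7, the cytoplasmic poly(A) binding proteins 1 of 4, and initiation factors 7 of 42 (16.7%, 8.32 to 30.6). With near-copies counted (7 of 47 initiation factor genes), the peaks lay on 3 of 14 EIF3 genes, 3 of 12 EIF4 genes and 1 of 5 EIF5 genes, and on 0 of 5 EIF1 and 0 of 11 EIF2 genes. RPS19, a small-subunit protein, and EIF3H, a subunit of the EIF3 complex, had 0 peaks, which says only that none of their bins passed the limit of the list. The level of these RNAs in the nuclei was not analysed here, so the shares describe where peaks were called and not binding per RNA molecule.

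**Figure D1:**
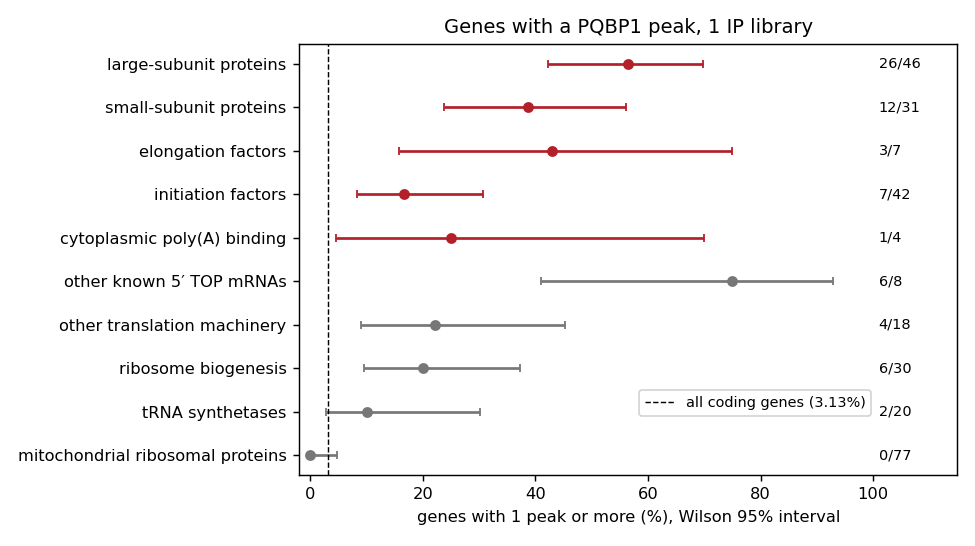
Percent of the genes of each family with 1 mRNA peak or more (points, with Wilson 95% intervals as bars and the counts at the right), for the role groups of the members in red and for lists of related genes in grey. The dashed line is the 3.13% of all coding genes. Large-subunit proteins (26 of 46) lie far to its right, while mitochondrial ribosomal proteins (0 of 77) lie at 0.

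The ribosomal protein genes with a peak were longer than those without, with a median of 1116 against 634 nt of exon in the canonical transcript of GENCODE release 44. In some of these models 1 exon makes up most of the length, as in RPL37 with 7312 of 7573 nt. Genes without a peak have long models too, such as RPS23 with 3252 nt. Other transcript models were not tried, so the gap may depend on the model. The order of named pseudogenes depended on the near-copies, a set chosen after the values were seen. Without them the median was 12.5 for genes with a peak and 15 for genes without, and with them 12.5 and 6. These copies matter for reading the values. Each of the 38 ribosomal protein genes with a peak has at least 1 named pseudogene, EEF1A1 has 49 and PABPC1 has 13, whereas the median of the other mRNA genes with a peak is 0. How reads that fit both gene and copy were treated is not stated, so the division of reads between them is uncertain.

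Peaks per gene were fewer than elsewhere, at a mean of 1.76 against 2.16 for the other mRNA genes. Of the member genes, 34 had 1 peak and 16 had 2 or more (32.0%, 20.8 to 45.8). In the whole set of genes with an mRNA peak 35% had 2 or more, so the members were close to the background. Ribosomal protein genes averaged 1.37 peaks and translation factor genes 3.18, and all 4 genes with 5 peaks or more were translation factors: PABPC1, EIF4G1, EEF2 and EIF3A. They held 25 of the 88 peaks (28.4%) and 30.3% of the members' reads. Member genes are short, with a median of 1332.5 nt of exon and 3402 nt of intron against 4657 and 29855.5 nt for the other genes. Per kb of exon the order was the opposite, with 0.807 peaks of any class in the members and 0.400 in the other genes. Within the members, ribosomal protein genes have a median of 1116 nt of exon and translation factor genes 3158 nt. Their peaks per kb of exon were closer than their peaks per gene, at 0.795 and 0.918. Every gene counted has at least 1 peak, which raises the value per kb for short genes. All values per kb depend on the transcript model.

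**Figure D2:**
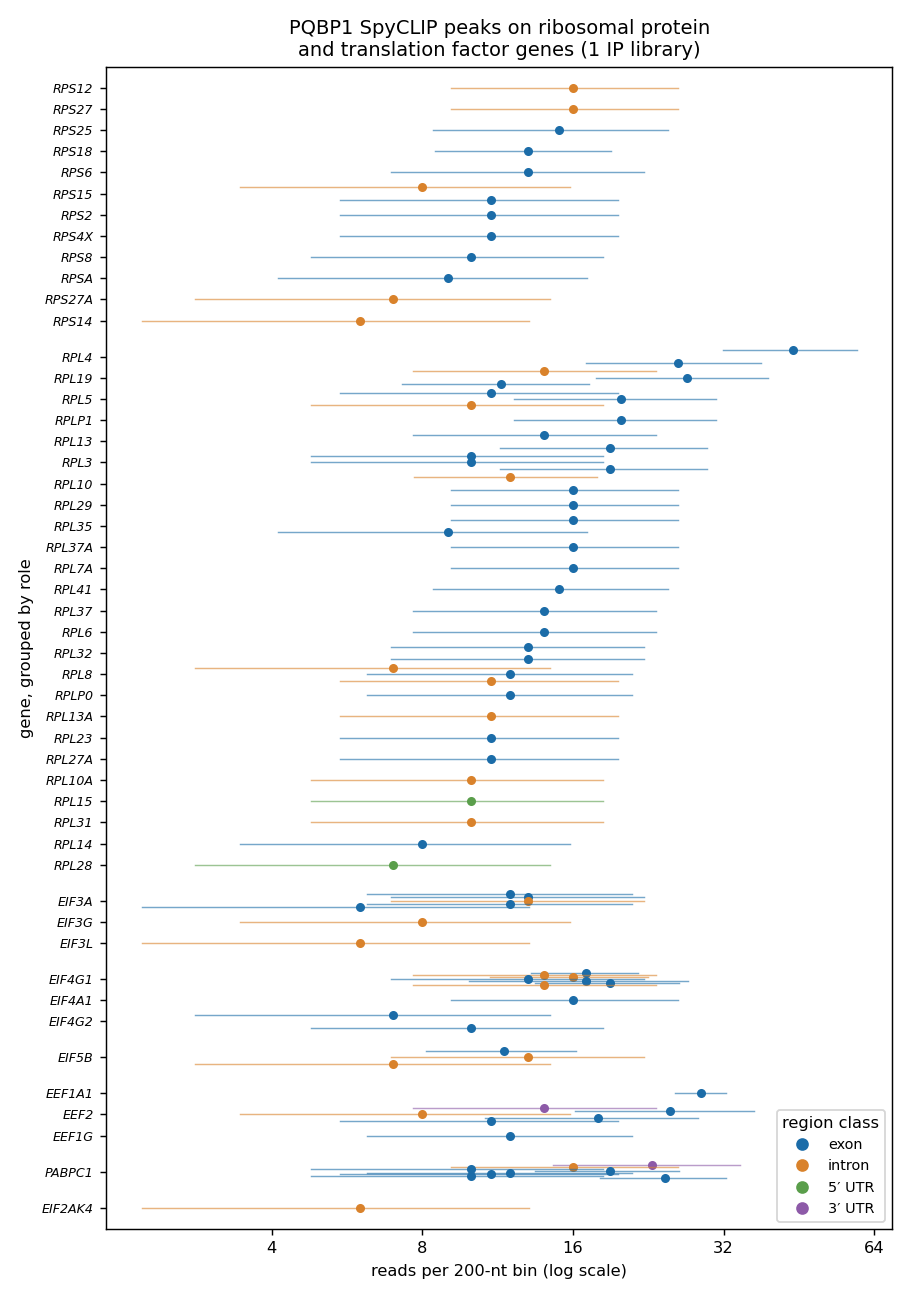
Reads per 200-nt bin (log scale) of 87 of the 88 member peaks, with genes grouped by role and ordered within a role by their highest peak. Points are coloured by region class and lines are exact Poisson 95% intervals. The RPL4 peak of 44 reads is the highest, and the orange intron points reach no further than 16.

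By region, the list classed 59 of the 88 member peaks as exon (67.0%, 56.7 to 76.0), 24 as intron (27.3%, 19.1 to 37.4), 3 as 5′ UTR (3.41%, 1.17 to 9.55) and 2 as 3′ UTR (2.27%, 0.625 to 7.91). The other mRNA peaks had 61.4% in exons (58.7 to 64.1), 29.2% in introns (26.7 to 31.8), 1.36% in 5′ UTRs and 6.24% in 3′ UTRs (5.03 to 7.72). Each of the members' intervals overlapped that of the other peaks. The canonical transcripts of the member genes, introns included, are 26.8% exonic at the median, against 13.7% for the others. Of their exons 17.6% (78 of 443) reach the 200 nt of a bin, against 19.5% in the other genes. Most exons are thus narrower than a bin, so a class does not place the whole of a peak in exon or in intron. Exon peaks without an intron peak were found on 27 member genes, intron peaks without an exon peak on 10, and both on 10. In 5 of these last 10 the exon and the intron class belonged to different transcripts of the gene, so that the classes depend there on the transcript that the authors' annotation picked. Weighted by reads, exons held 78.7% of the members' signal and 68.6% of that of the other peaks. A single exon peak, the wide one on EEF1A1, held 288 of the members' 1641 reads and weighs heavily in the first share.

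**Figure D3:**
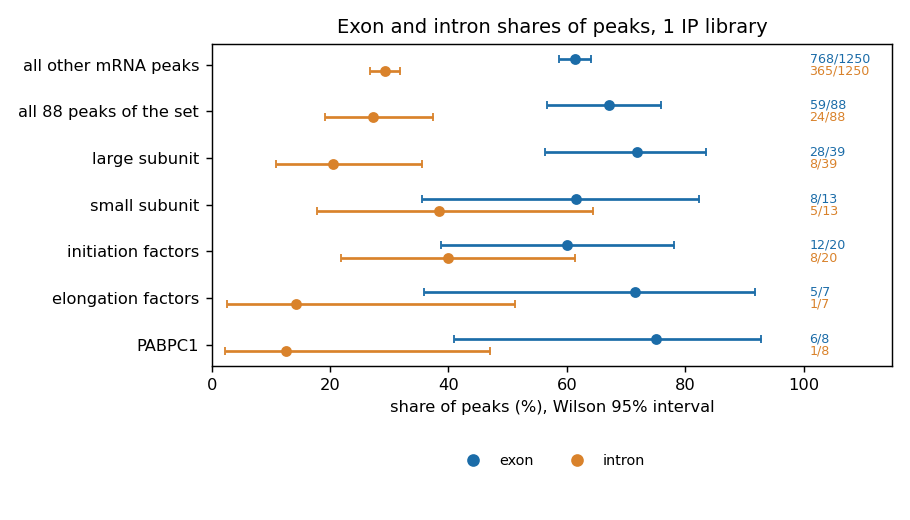
Percent of peaks classed as exon (blue) and intron (orange) in the other mRNA peaks, in all 88 member peaks and in each role group, with Wilson 95% intervals as bars and counts at the right. The members' intervals, 56.7 to 76.0% for exons and 19.1 to 37.4% for introns, span the shares of the other peaks.

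Read values of the members were a little higher than elsewhere. Their median was 12 reads per bin (quartiles 10 and 16, range 6 to 44), against 10.5 (8 and 14, range 6 to 200). On the log2 scale the members averaged 3.65 (SD 0.55, 88 peaks) and the others 3.46 (SD 0.58, 1250 peaks). The difference was 0.19 (95% interval from the counting error of the reads 0.10 to 0.28), a ratio of 1.14, and no second IP library gives its spread between replicates. It came with fewer low peaks: 16 member peaks (18.2%) had fewer than 10 reads per bin, against 434 others (34.7%). Among peaks of at least 10 reads per bin the log2 difference was 0.063, and below a p-value of 1e-05 it was -0.024. Peaks of 14 reads per bin or more made up 27.4% of all mRNA peaks, 39.8% of the members (35 of 88, 30.2 to 50.2) and 26.6% of the others (24.2 to 29.1).

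In exons and in introns the order was alike, while the 3 member peaks in 5′ UTRs, with at most 10 reads, lay below the median of 12 of the other 17. The median exon peak held 13 reads per bin in the members and 11 in the others, a mean log2 difference of 0.23 (0.13 to 0.34). Intron peaks had 10.5 and 9, with a difference of 0.13 whose interval reached from -0.06 to 0.32. Inside the member genes exon peaks exceeded intron peaks by 0.43 on the log2 scale (0.22 to 0.64), and in the other genes by 0.33 (0.27 to 0.38). Whether these 2 gaps differ was not tested. Ribosomal protein and translation factor peaks differed by -0.05 (-0.22 to 0.12). This interval holds counting error alone and not the spread between peaks or genes, so it does not bound the difference between the groups.

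**Figure D4:**
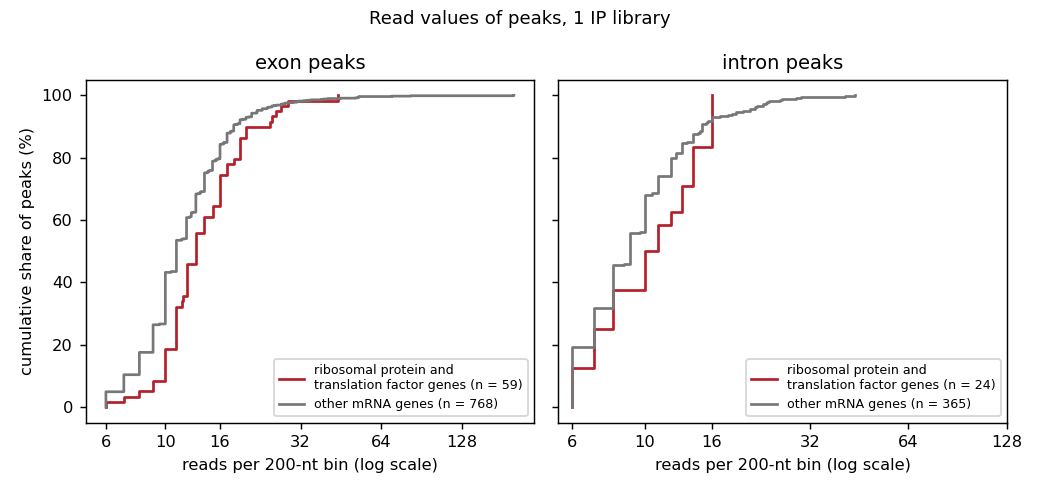
Cumulative percent of peaks (vertical) against reads per 200-nt bin (log scale), for exon peaks at the left and intron peaks at the right, with members in red and other mRNA genes in grey. In exons the red curve runs to the right of the grey one over most of its length, and in introns it ends at 16 reads while the grey curve runs on to 44.

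The authors' peak caller gave each peak a p-value. Below 0.001 lay 57.4% of all mRNA peaks, 67.0% of the member peaks (59 of 88, 56.7 to 76.0) and 56.7% of the other peaks (54.0 to 59.4). Below 1e-05 lay 33.9% of all mRNA peaks, 45.5% of the members (40 of 88, 35.5 to 55.8) and 33.0% of the others (30.5 to 35.7). This share moved with the read value, since none of the peaks under 10 reads per bin was below 0.001 in either group. With 10 to 14 reads per bin the order turned, at 73.0% of 37 member peaks and 81.2% of 484 others. The smallest value of the list was shared by 3 member peaks, the pair on RPL4 and 1 on RPL19, and by 37 of the 1250 others. In the opposite direction, 2 members of 20 reads or more did not pass 0.001, the wide peaks of EEF1A1 and PABPC1, while 89 of 89 such peaks of the other genes did.

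Small-subunit genes had 13 peaks on 12 genes, 8 in exons and 5 in introns, with a median of 11 reads per bin. The exon peaks lay between 9 and 15 reads. The highest values were classed as intron, with 16 reads each (9.15 to 26.0). They belonged to RPS12, on chromosome 6 from 133136001 to 133136200, and to RPS27, on chromosome 1 from 153963601 to 153963800. The longest exon of the canonical transcript is 117 nt in RPS12 and 111 nt in RPS27, so a 200-nt bin fits inside no exon of either. Both transcripts begin with the pyrimidine run printed above. The 3 remaining intron peaks were low, with 8 reads on RPS15, 7 on RPS27A, which encodes a fusion of ubiquitin with a ribosomal protein, and 6 on RPS14. RPS15, with an exon peak of 11 reads (5.49 to 19.7) beside its intron peak on another transcript, was the only small-subunit gene with more than 1 peak. The Poisson intervals of all these peaks overlapped, so they could not be put in order.

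Large-subunit genes had 39 peaks on 26 genes, of which 28 were in exons (71.8%, 56.2 to 83.5), 8 in introns (20.5%, 10.8 to 35.5) and 3 in 5′ UTRs. RPL4 had the highest peak of all members, 44 reads (32.0 to 59.1) on chromosome 15 from 66791801 to 66792000, and a second exon peak of 26 reads (17.0 to 38.1) from 66792401 to 66792600. Only 9 of the 1338 mRNA peaks were higher than the first of these. RPL19 had an exon peak of 27 reads (17.8 to 39.3) on chromosome 17 from 37359201 to 37359400, a wider exon peak of 11.5 reads per bin, and an intron peak of 14 reads on another transcript. RPL4 and RPL19 thus held the highest ribosomal protein peaks, although the intervals of 26 and 27 reads reach well into those of many other members.

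Other large-subunit genes had several exon peaks of middling height. RPL5, which binds the small ribosomal RNA of the large subunit, had exon peaks of 20 reads (12.2 to 30.9) and 11 reads and an intron peak of 10. RPLP1, a protein of the ribosomal stalk, had 1 exon peak of 20 reads. RPL3, which lies close to the catalytic centre, had 19, 10 and 10 reads, and RPL13 had 19 and 14, all in exons. RPL32 with 13 and 13 reads and RPL35 with 16 and 9 were likewise exonic. RPL10 had 16 reads in an exon and 12 per bin in an intron, and RPL8 had 12 reads in an exon and 11 and 7 in introns. For RPL10 and RPL8 the 2 classes came from different transcripts. The remaining intron peaks were on RPL13A with 11 reads and on RPL10A and RPL31 with 10 each. The 3 peaks in 5′ UTRs were all on this subunit, among them 10 reads on RPL15 (4.80 to 18.4) and 7 on RPL28 (2.81 to 14.4).

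Initiation factors had 20 peaks on 7 genes, 12 in exons (60.0%, 38.7 to 78.1) and 8 in introns. EIF4G1, the scaffold that joins the cap-binding protein to the helicase EIF4A1, had 7 peaks on chromosome 3 between 184039001 and 184044400. Its exon peaks had 17, 13, 17 and 19 reads per bin and its intron peaks 14, 16 and 14, so the intron peaks lay within the range of the exon peaks, 3 of which were higher than any of them. The list gave the exon class on 1 transcript and the intron class on another, and where these 3 intron peaks fall on the first transcript was not determined. EIF4A1 had 1 exon peak of 16 reads (9.15 to 26.0), and EIF4G2, a relative of EIF4G1, had exon peaks of 10 and 7 reads. EIF3A, the largest subunit of EIF3, had exon peaks of 12, 13, 12 and 6 reads and an intron peak of 13, spread over 23800 nt. EIF3G and EIF3L, further subunits, had 1 intron peak each, with 8 and 6 reads. EIF5B, the GTPase that joins the subunits at the start codon, had an exon peak of 11.7 reads per bin and intron peaks of 13 and 7. EIF2AK4, the kinase, had 1 intron peak of 6 reads, the lowest value that the list holds.

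Elongation factors had 7 peaks on 3 genes. EEF1A1, which delivers charged tRNAs to the ribosome, had 1 exon peak of 28.8 reads per bin (25.6 to 32.3) that covered 2000 nt, on chromosome 6 from 74227201 to 74229200. It was the widest member peak and held 288 reads, the most of any member gene, yet its deposited p-value was 0.00132. EEF2, which moves the ribosome on by a codon, had exon peaks of 25, 18 and 11 reads, an intron peak of 8 reads and a 3′ UTR peak of 14 reads on chromosome 19 between 3976401 and 3983000. The intervals of the highest exon peak (16.2 to 36.9) and of the intron peak (3.45 to 15.8), the lowest of the 5, did not overlap. Those of the other exon peaks (10.7 to 28.4 and 5.49 to 19.7) and of the 3′ UTR peak (7.65 to 23.5) did overlap that of the intron peak. EEF1G, part of the complex that recharges EEF1A1, had 1 exon peak of 12 reads.

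PABPC1, which binds the poly(A) tail and promotes translation, had the most peaks of any member, 8 over 18600 nt. In exons they had 24.5, 19, 12, 11, 10 and 10 reads per bin. The intron peak had 16 reads (9.15 to 26.0) and the 3′ UTR peak 23 reads (14.6 to 34.5). The highest exon peak lay at the 5′ end of the row of peaks and the 3′ UTR peak at its 3′ end, and their intervals overlapped.

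**Figure D5:**
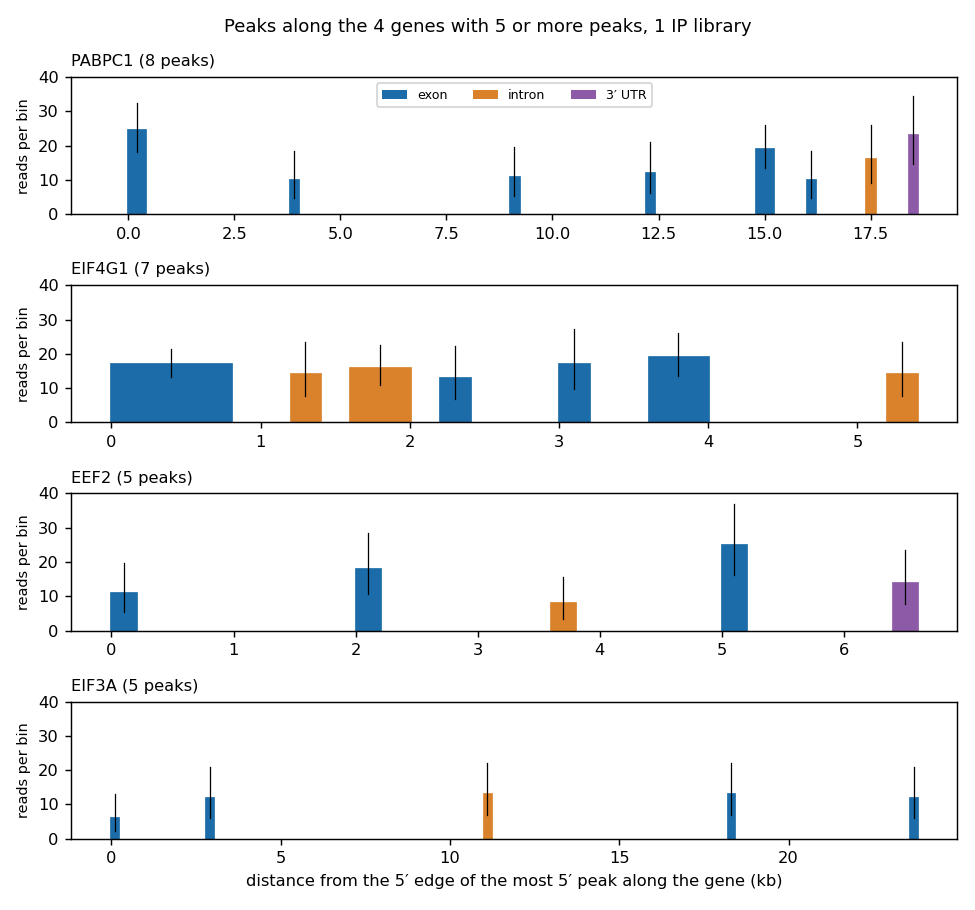
Reads per bin (height) and width of each peak along the 4 genes with 5 peaks or more, drawn from the 5′ to the 3′ end of the gene as distance in kb from the first peak. Colours give the region class and vertical lines the exact Poisson 95% intervals. The intron peaks of EIF4G1 (14, 16 and 14 reads per bin) lie within the range of its exon peaks (13 to 19), while that of EEF2 (8 reads) is its lowest.

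Introns of 21 member genes host snoRNAs by GENCODE names and positions, and 29 genes do not. The groups had 44 peaks each. In the host genes 33 peaks were in exons and 9 in introns (20.5%, 11.2 to 34.5), and in the other genes 26 and 15 (34.1%, 21.9 to 48.9), with intervals that overlapped. The intron peaks had a median of 13 reads in hosts and 8 in the others. Whether any of them lies on a snoRNA could not be read, because the peaks and the annotation are in different builds.

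Genes of neighbouring families were counted from fixed lists. Among 8 other mRNAs known to carry the 5′ TOP motif, 6 had a peak, and VIM, an intermediate filament gene, had 5 of their 12 peaks with up to 38.2 reads per bin (32.4 to 44.8). The other 5 genes were lower: TPT1 had 15 and 11 reads, RACK1, a small-subunit protein whose name the rule does not match, had 13 and 8, NAP1L1 had 8, BTF3 had 7 and NPM1 had 6. Of 18 further genes of the translation machinery, 4 had a peak, namely TPT1, RACK1 and BTF3 again and GCN1, the activator of EIF2AK4, with 7 reads in each of 2 peaks.

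Ribosome biogenesis genes had a peak in 6 of 30 cases. NCL, which encodes the nucleolar protein nucleolin, had exon peaks of 82.5 reads per bin (70.4 to 96.1) and 51.3 reads per bin (43.5 to 60.1) and an intron peak of 10 reads, so its highest lay above every member peak. NOP56 had 11 reads, NOP2, MYBBP1A and NOP58 had 10 each, and NPM1, which is in both lists, had 6. Of 20 tRNA synthetase genes, FARSA had 6 reads and VARS 9. Of 77 genes for mitochondrial ribosomal proteins, 0 had a peak, a share whose Wilson interval ends at 4.75% and includes the 3.13% of all coding genes. The cytoplasmic ribosomal proteins, at 38 of 77, lay apart from it.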

How the data were processed

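PQBP1 SpyCLIP-seq was done by the authors in HEY cells with 1 Input and 1 IP library, grouped here by library title. Per the methods of the study, reads were trimmed with Trimmomatic, ribosomal RNA reads were removed, and the rest were aligned with TopHat (the submitters' processing notes name TopHat2 2.0.13). Peaks were called with Piranha and annotated with HOMER. The authors deposited a coverage signal per peak. Multiplied by the number of 200-nt bins it was whole (within 0.02) in all 1489 peaks, so it was read as mean reads per bin, not scaled to depth. They also deposited the caller's p-value of each peak, at most 0.0467, without stating an adjustment. It was used only to filter and describe. How Input entered the calling is not stated, and Input values are not analysed here. The methods name GRCh38, but the positions are not of that build and were not converted. The strand equalled that of the gene model in 88 of 88 member peaks and was read as taken from the annotation.

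Values were computed in Python 3.11.15 with pandas 2.3.3 and scipy 1.17.1, after the scripts had been tested on simulated data. Gene models, 1 canonical transcript per gene, came by name from GENCODE release 44, and all 50 member genes matched RefSeq by gene identifier. Shares carry Wilson 95% intervals, and reads carry exact Poisson intervals. Differences in mean log2 carry a normal 95% interval from the counting error of each peak's reads. With 1 library per group no test was made. Members and gene lists were chosen with earlier results of these data known. The reads-per-bin classes (among them 14 or more), the set of near-copies left out, the start search, and the pseudogene and snoRNA counts were chosen after the values were seen. Named with values are genes with 2 or more peaks, the 10 highest peaks with ties, peaks outside exons, RPS19, EIF3H, and genes with a peak from the related lists. Further genes were named after their values were seen, and 1 gene under the rule is not reported by name here. Alternatives were p-value limits of 0.001 and 1e-05, a minimum of 10 reads per bin, peaks of 1 bin, leaving out intergenic peaks, genes matched by name only or the gene with the most peaks, 1 peak per gene, weighting by reads, exons only and medians.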

Additional observations from a re-analysis of the deposited data

Results flagged for a closer look

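Some rows on member loci fall outside the mRNA rule and so outside every comparison above. They are given here as signal outside the main measurement. Each holds more than the 3 reads that a count of 0 allows, as does every peak of a list that begins at 6 reads per bin. SNORA81, a snoRNA hosted by the initiation factor gene EIF4A2, had 112 reads (92.2 to 134.8) on chromosome 3 from 186504401 to 186504600. SNORA63, another snoRNA of EIF4A2, had 11 reads (5.49 to 19.7) from 186505001 to 186505200. EIF4A2 itself had 0 mRNA peaks. SNORA67, hosted by EIF4A1, had 17 reads (9.90 to 27.2) on chromosome 17 from 7481201 to 7481400, near the EIF4A1 exon peak of 16 reads from 7480601 to 7480800. RPL13A had a peak of 9 reads (4.12 to 17.1) on a noncoding transcript, on chromosome 19 from 49994201 to 49994400, beside its intron peak of 11 reads from 49993001 to 49993200. Input values for these loci are not analysed here.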

How the results depend on the processing

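Of 69 alternative values, 55 moved by less than the interval or limit set for them, 13 moved further and 1 changed sign. Some of the 55 could not move. No member peak was intergenic, so leaving out intergenic peaks could not change a value of the members alone. The difference of medians had no interval and was counted as unmoved for being above 0. A p-value limit of 1e-05 left 40 member peaks on 26 genes, lowered the share that passed from 67.0% to 45.5%, and turned the log2 difference from 0.19 to -0.024. A limit of 0.001 gave a log2 difference of 0.043. A minimum of 10 reads per bin gave 0.063 and a share below 0.001 of 81.9%, against 86.9% of the other peaks. Both kinds of limit act on the read value or on a measure that moves with it. Weighting by reads gave 78.7% in exons and 17.5% in introns (other peaks 68.6 and 21.9%). The EEF1A1 exon peak, with 288 of the members' 1641 reads, weighs heavily in the first of these values. Of alternatives chosen after seeing the data, ribosomal proteins alone had 52 peaks and 1.37 peaks per gene, and translation factors alone had 35 peaks on 11 genes and 3.18 per gene. Adding the UTR and stop-codon classes to exon was also tried. No paired analysis was possible because Input and IP comprise 1 library apiece. The median member peak holds 12 reads per bin, so most single peaks have wide counting intervals and were not checked against another IP library.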
